A study of Mus musculus with 94 samples.

Results

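The co-repressor gene Ski and 5 genes of the complexes it works with were followed through the single stem cells of a mouse knockout study. The genes are Ski, the scaffolds Ncor1 and Sin3a, and the class I histone deacetylases Hdac1, Hdac2 and Hdac3. They were taken by symbol, and all 6 were found among the 13244 genes of the table. The cells were C57BL/6 haematopoietic stem cells of fetal liver origin that had been in transplant recipients for 6 months. They were recovered from hindlimb bone marrow after enrichment on CD117 beads and a sort for lineage-negative, c-Kit+, Sca-1+, Cd48- and Cd150+ cells carrying the Cd45.2 marker. The 46 cells labelled Ski-KO carry 2 prefixes in their labels, 051716 (27 cells) and 051816 (19 cells), and the 48 cells labelled Ski-WT all carry 061016. What the prefix means, how Ski was removed, and from which animals or donors the cells came is not given in the labels. Each genotype is therefore 1 sample, cells are not replicates, and no test between genotypes was made. No prefix holds both genotypes, so prefix and genotype cannot be told apart.

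Ski has no enzymatic activity of its own and represses genes as part of larger assemblies. It binds the Smad proteins that carry the TGF-beta signal to the nucleus and brings to them the scaffolds NCoR, encoded by Ncor1, and Sin3A. NCoR holds and activates the deacetylase Hdac3, whereas Sin3A carries Hdac1 and Hdac2. The deacetylases remove acetyl groups from histones and thereby lower transcription of the bound gene. Hdac1 and Hdac2 are known to be needed, jointly, for the upkeep of blood stem cells.

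All values below are TPM, a level scaled to transcript length and to the total of the cell, or log2(TPM + 1). A gene was counted as detected at 5 TPM or more, and intervals on shares of cells are exact Clopper-Pearson 95% intervals that cover counting error only. TPM keeps no sequencing depth, so the depth behind a value of 0 is unknown and such a gene is said to be listed at 0. The median number of genes at 5 TPM or more per cell was 2094 in prefix 051716, 2288 in prefix 051816 and 2415.5 in Ski-WT. Stem cell genes were present, with Kit at 5 TPM or more in 79 of the 94 cells and Meis1 in 81, whereas Slamf1, which encodes the sorted protein Cd150, reached it in 4 cells of Ski-KO and 7 of Ski-WT. Among markers of other cells, the myeloid genes Prtn3 and Lyz2 reached 5 TPM in 57 and 56 cells, while Mpo, Elane and Ctsg of the same list were listed at 0 in all 94. Nkg7 of the T and NK cell list reached it in 37 cells, but Cd3d and Klrb1c of that list in 0. Of the megakaryocyte list, Pf4, Gp9 and Itga2b reached it in 29, 25 and 16 cells, Ppbp in 2 and Gp1bb in 0. Cd79b of the B cell list reached it in 20 cells and Cd79a in 1. No macrophage gene of the list did so in more than 4.

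Ski was listed at 0 in 75 of the 94 cells and was above 0 in 19. In prefix 051716 it was above 0 in 6 cells, with 227.93 TPM in cell 20, 10.46 in cell 24, 2.33 in cell 25, 1.55 in cell 14, 0.45 in cell 18 and 0.21 in cell 4. In prefix 051816 it was above 0 in 3 cells, with 162.13 TPM in cell 39, 1.42 in cell 29 and 0.40 in cell 30. In Ski-WT it was above 0 in 10 cells, with 335.53 TPM in cell 32, 121.28 in cell 27, 21.77 in cell 16, 19.87 in cell 42, 11.86 in cell 22, 8.24 in cell 13 and 0.11 to 0.26 in the other 4. The ranges of the genotypes overlap throughout, and cells with over 100 TPM occur in both, 2 in each. A single Ski-WT cell held 64.6% of all Ski TPM of its genotype. Without the highest cell of each genotype, mean Ski was 3.98 TPM in Ski-KO and 3.91 TPM in Ski-WT, against 8.85 and 10.8 TPM with them. Since it is not given which part of Ski is missing, these values do not check the genotype, and directions below refer to the cells as labelled.

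The 9 cells with Ski at 5 TPM or more differed in the partners they held. Of these 9, 6 also had Ncor1 at 5 TPM or more, 5 had Hdac1, 2 had Sin3a, 2 had Hdac2 and 1 had Hdac3. Ski-WT cell 16 held Ski with Ncor1 at 81.2 TPM, Sin3a at 216.24 and Hdac1 at 901.5, and Ski-WT cell 13 held it with Ncor1 at 128.45, Hdac1 at 269.92 and Hdac2 at 55.83. The 2 cells with the most Ski held 1 partner each, as did Ski-KO cell 39 with Ski at 162.13 TPM and Ski-WT cell 22 with Ski at 11.86 TPM. In Ski-WT cell 32 the sole partner was Ncor1 at 7.14 TPM, and Sin3a and all 3 deacetylases were listed at 0. In Ski-KO cell 20 it was Ncor1 at 146.02 TPM, with Hdac3 at 0.47 and the others listed at 0. The median number of the 5 partners was 2 in the 9 Ski cells and 2 in the 75 cells with Ski listed at 0.

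**Figure D1:**
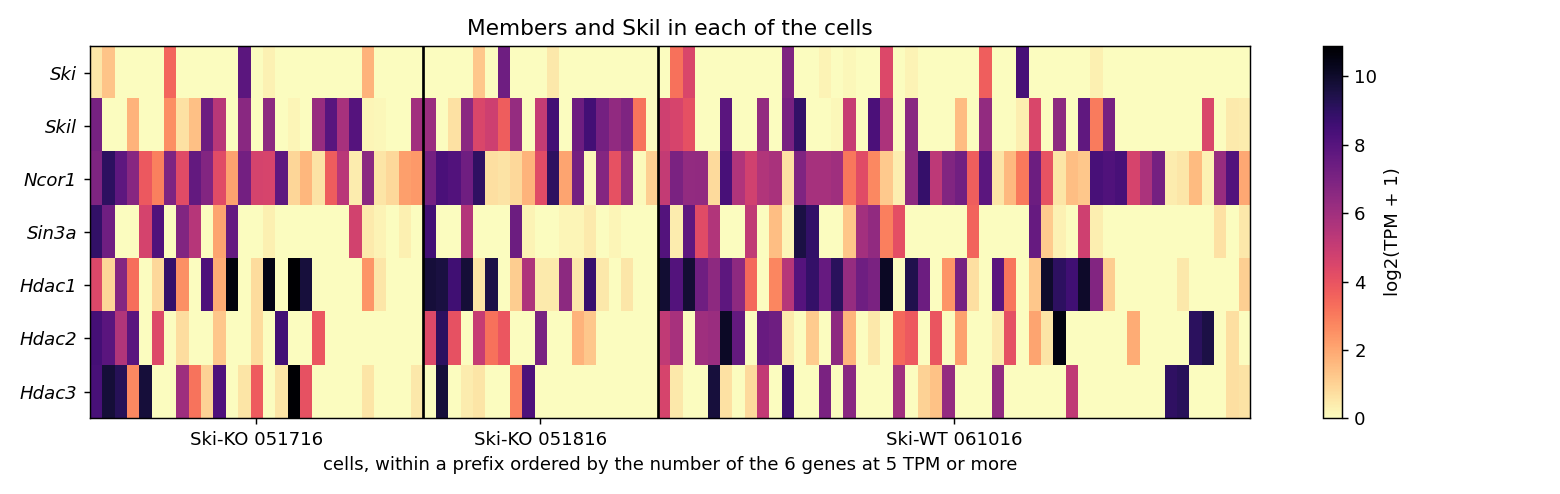
Level of the 6 genes and of the Ski relative Skil in each of the 94 cells, as log2(TPM + 1) in colour, with 1 column per cell, grouped by label prefix and ordered within a prefix by how many of the 6 genes reach 5 TPM. Ski is listed at 0 in 75 of the cells, while Ncor1 is above 0 in all of them.

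Ncor1 was the most widely detected of the 6 genes and differed little between the genotypes. It reached 5 TPM in 18 of 27 cells of prefix 051716 (66.7%, interval 46.04% to 83.5%), 11 of 19 of prefix 051816 (57.9%, 33.5% to 79.7%) and 34 of 48 Ski-WT cells (70.8%, 55.9% to 83.0%). In those cells its median level was 97.1, 142.57 and 69.3 TPM in the same order. The highest values were 523.51, 519.66 and 460.1 TPM, so the 3 sets cover the same range. On the log2(TPM + 1) scale the mean difference of Ski-KO from Ski-WT was -0.17, with -0.20 in prefix 051716 and -0.13 in prefix 051816. Mean TPM went the other way, at 93.3 in Ski-KO and 82.2 in Ski-WT, a log2 ratio of 0.18. The log2 difference was above 0 under 5 of 12 alternatives, among them 0.18 with the number of genes detected per cell as a linear covariate and 0.71 with quantile normalization.

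Ncor1 was also above 0 in every cell, and in 31 cells its value lay between 0.09 and 3.98 TPM, with a median of 0.82. Of the 13244 genes, 194 were above 0 in all cells, and only 6 of these, Ncor1 included, were under 5 TPM in 31 cells or more. In the GENCODE mouse annotation for GRCm38, a shorter Ncor1 transcript, Ncor1-203, shares stretches of 75 bases with transcripts of 66 other genes, although only 0.56% of all distinct 75-base stretches of Ncor1 are shared. Whether such stretches contribute to the low values was not tested.

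Sin3a was scarcer. It reached 5 TPM in 8 cells of prefix 051716 (29.6%, interval 13.8% to 50.2%), 3 of prefix 051816 (15.8%, 3.38% to 39.6%) and 14 Ski-WT cells (29.2%, 16.95% to 44.1%). The level in these cells had a median of 135.1, 166.33 and 53.3 TPM, with the highest cells at 482, 368.44 and 760.21 TPM. The Ski-KO prefixes stood on opposite sides of Ski-WT, at 0.21 and -0.70 on the log2(TPM + 1) scale, and the pooled difference of -0.17 lay between them. Mean Sin3a was 41.5 TPM in Ski-KO and 46.4 TPM in Ski-WT, and 31.7 and 31.2 TPM without the highest cell of each, which turns the direction. Sin3b, which encodes the other Sin3 scaffold, was found at that level in 13 cells of Ski-KO and 16 of Ski-WT.

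Hdac1 reached 5 TPM in fewer cells labelled Ski-KO, and its median level in those cells was higher. It reached 5 TPM in 9 of 27 cells of prefix 051716 (33.3%, interval 16.5% to 53.96%), 8 of 19 of prefix 051816 (42.1%, 20.3% to 66.5%) and 28 of 48 Ski-WT cells (58.3%, 43.2% to 72.4%). Pooled, the Ski-KO share was 36.96% (23.2% to 52.5%), which is 21.4 percentage points below Ski-WT, and the intervals overlap. Of the 6240 genes with a value above 0 in 25% or more of Ski-KO or of Ski-WT cells, 2.82% had a share difference as low or lower, and the median over them was -3.44 points. In the cells at 5 TPM or more, median Hdac1 was 458.37 TPM in prefix 051716, 576.08 in prefix 051816 and 204 in Ski-WT. The highest values were 1900.25, 859.77 and 1128.82 TPM, so the ranges overlap. At 100 TPM or more there were 13 cells in Ski-KO and 21 in Ski-WT, and at 500 TPM or more 8 and 8.

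The measures of Hdac1 therefore point different ways. Its difference on the log2(TPM + 1) scale was -1.17, with -1.47 in prefix 051716 and -0.75 in prefix 051816. Mean TPM was 233 in Ski-KO and 207 in Ski-WT, a log2 ratio of 0.17. The difference was -0.60 when the number of genes detected per cell entered as a linear covariate, and -0.69 without the 9 cells with the fewest genes, 7 of them Ski-KO. Both values are smaller in size than the 1 log2 unit used here as the limit for a call. The cells that held Hdac1 also held more genes in all, with a median of 2533 genes at 5 TPM or more against 2176 in the cells that did not.

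Part of the Hdac1 message cannot be told from a near-copy by its sequence. The processed pseudogene Gm10093 on chromosome 17 matches the coding sequence of Hdac1 on chromosome 4 at 99.4% of 1444 aligned bases, with 9 differences. It contains 51.2% of the 75-base stretches of transcript Hdac1-201 and has no row of its own in the table. Over all its annotated transcripts, Hdac1 shares such stretches with 47 other genes, 26 of which have a row. Transcript Hdac1-207 alone shares them with 45. The coding bases 312 to 371 of Hdac1-201, counted from the first base of the start codon, and bases 312 to 371 of the Gm10093 transcript are shown because they hold 1 of the differences, which stands in capitals. Both are written 5′ to 3′ on the transcribed strand, from the GENCODE transcripts for GRCm38.
Hdac1-201: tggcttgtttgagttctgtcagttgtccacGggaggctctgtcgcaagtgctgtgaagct
Gm10093-201: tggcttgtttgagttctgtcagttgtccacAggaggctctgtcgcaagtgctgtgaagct
The submitters' processing notes name RSEM. Whether its reference held Gm10093, and so how reads that match both were divided, is not given in the sources used here. The Hdac1 level is therefore uncertain. Ski, Hdac2 and Hdac3 share no 75-base stretch with another annotated gene.

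Hdac2, the close relative of Hdac1, was found in about as many cells of each genotype and at a lower mean level in Ski-KO. It reached 5 TPM in 7 cells of prefix 051716 (25.9%, interval 11.1% to 46.3%), 7 of prefix 051816 (36.8%, 16.3% to 61.6%) and 16 Ski-WT cells (33.3%, 20.4% to 48.4%). The median in these cells was 234.48, 19.5 and 79.7 TPM, and the highest values were 358.36, 533.86 and 1501.17 TPM. The Ski-WT median lies between those of the Ski-KO prefixes. Mean Hdac2 was 43.9 TPM in Ski-KO and 99.8 TPM in Ski-WT, and 32.97 and 69.98 TPM without the highest cell of each. At 500 TPM or more there was 1 cell in Ski-KO and 4 in Ski-WT. The difference on the log2(TPM + 1) scale was -0.53, with -0.64 and -0.38 in the prefixes. It was 0.02 with the number of genes detected per cell as a covariate and -0.10 with quantile normalization.

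Hdac3 encodes the deacetylase of the NCoR complex, and its Ski-KO prefixes lay on opposite sides of Ski-WT, with overlapping intervals. It reached 5 TPM in 11 of 27 cells of prefix 051716 (40.7%, interval 22.4% to 61.2%), 3 of 19 of prefix 051816 (15.8%, 3.38% to 39.6%) and 12 of 48 Ski-WT cells (25%, 13.6% to 39.6%). On the log2(TPM + 1) scale prefix 051716 was 1.06 above Ski-WT and prefix 051816 differed by -0.71, so the pooled value of 0.33 describes neither. In the cells at 5 TPM or more the median was 290.73, 300.35 and 91.3 TPM, and the highest cells held 1825.32, 843.87 and 827.21 TPM. Mean Hdac3 was 131 TPM in Ski-KO and 59.8 TPM in Ski-WT, and 92.8 and 43.5 TPM without the highest cell of each. The highest Hdac3 cell of Ski-KO, cell 8, was also its highest Hdac1 cell.

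**Figure D2:**
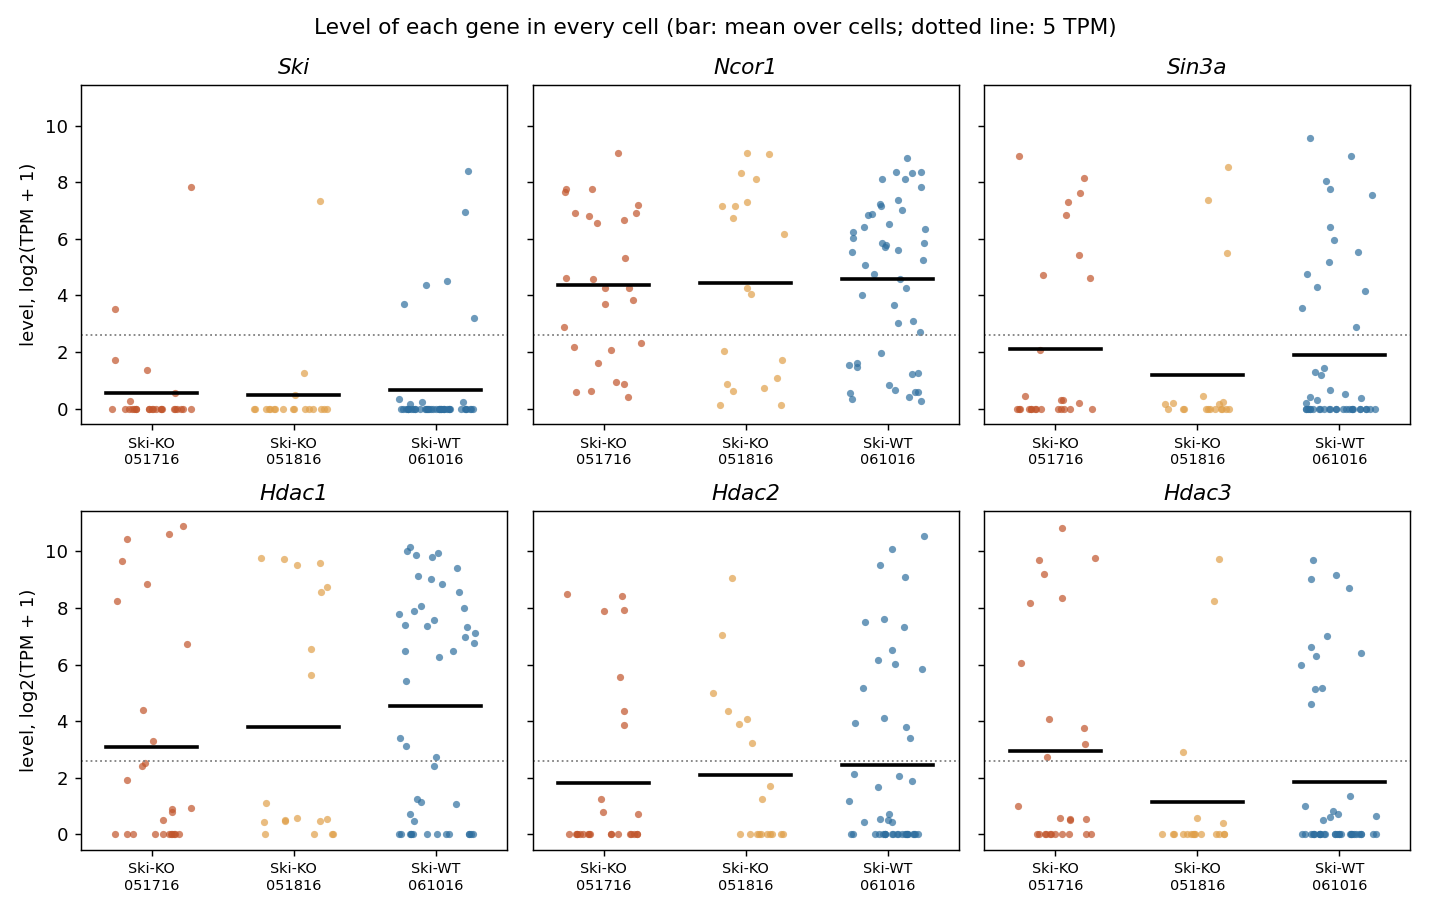
Level of each gene in every cell as log2(TPM + 1), by genotype and label prefix, with 1 point per cell, a bar at the mean over cells and a dotted line at 5 TPM. Hdac1 reaches the line in 9 of 27 cells of prefix 051716 (33.3%), 8 of 19 of prefix 051816 (42.1%) and 28 of 48 of Ski-WT (58.3%). Mean Hdac3 lies higher in prefix 051716 than in prefix 051816.

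**Figure D3:**
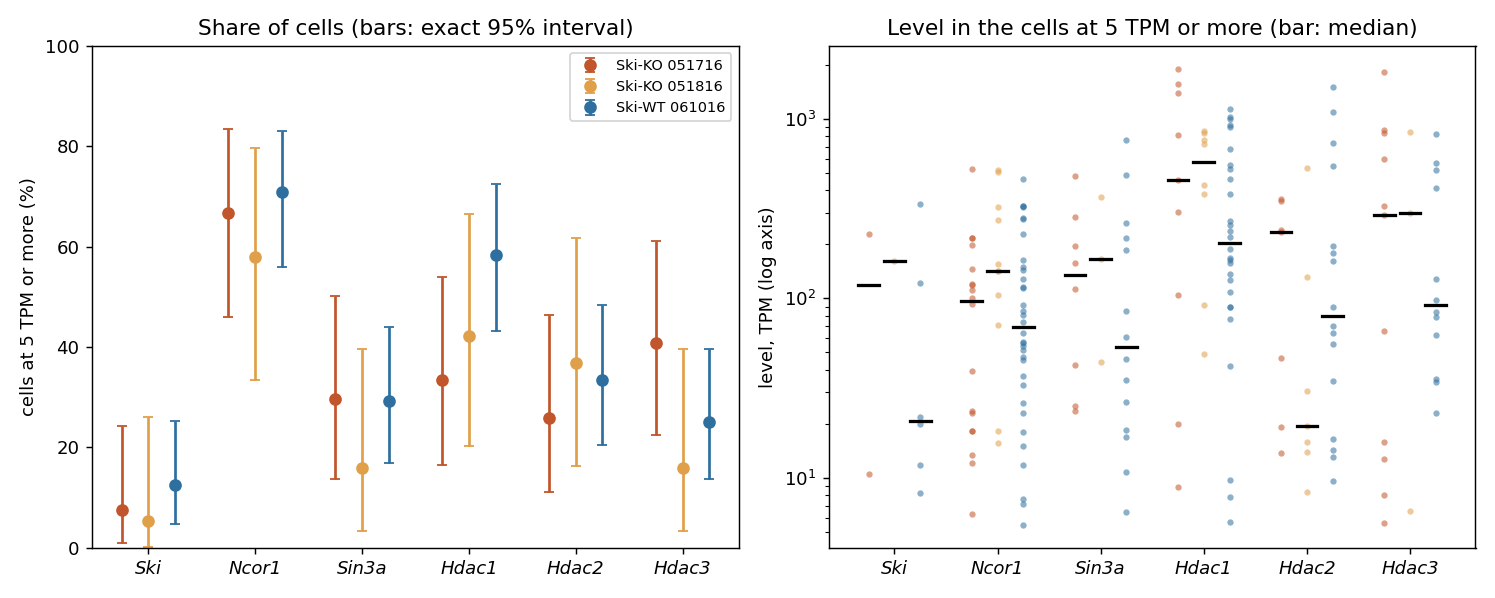
Left, the percentage of cells at 5 TPM or more for each gene and prefix, with exact 95% intervals as bars. Right, the TPM of those cells on a log axis with a bar at the median, where the Hdac1 medians of 458.37 and 576.08 TPM in the Ski-KO prefixes lie above the 204 TPM of Ski-WT.

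Across all 94 cells the order of the shares was Ncor1 (67.0%, interval 56.6% to 76.4%), Hdac1 (47.9%, 37.5% to 58.4%), Hdac2 (31.9%, 22.7% to 42.3%), Hdac3 (27.7%, 18.9% to 37.8%), Sin3a (26.6%, 18.01% to 36.7%) and Ski (9.57%, 4.47% to 17.4%). Neighbours in this order had overlapping intervals except Sin3a and Ski. The mean levels over all cells were 219 TPM for Hdac1, 94.4 for Hdac3, 87.6 for Ncor1, 72.4 for Hdac2, 43.97 for Sin3a and 9.85 for Ski. Hdac1 was highest and Ski lowest in each prefix, but the order of the other 4 depended on the prefix. In Ski-WT Hdac2 came next at 99.8 TPM, then Ncor1 at 82.2 and Hdac3 at 59.8. In prefix 051716 Hdac3 came next at 179.7 TPM, before Ncor1 at 74.7, and in prefix 051816 Ncor1 at 119.9 TPM, before Hdac3 at 60.6. A single Ski-KO cell held 20.6% of all Hdac3 TPM.

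Set beside all genes, the 6 had a similar median difference when the Ski-KO cells were pooled, but not in prefix 051816. Of the 6240 genes that passed the limit of 25% of cells, the median difference was -0.22, and 5 of the 6 passed, Ski being the exception, with a median of -0.17. In prefix 051716 the median was -0.20 for these 5 and -0.27 for all tested genes. In prefix 051816 it was -0.70 for these 5 and -0.20 for all tested genes. Each of the 6 was below Ski-WT there, and the share of all tested genes below Ski-WT in that prefix alone was not counted. Lower values in both Ski-KO prefixes were found for 3 of the 5 that passed, namely Ncor1, Hdac1 and Hdac2, and for 44.3% of the tested genes. Ski, which did not pass, was also lower in both. Higher values in both were found for 0 of the 6 and for 18.5% of the tested genes. A difference of -1 or lower was found for Hdac1 alone of the 6, and for 11.8% of the tested genes, and a difference of 1 or higher for 0 of the 6 and 2.08% of the tested genes. A smaller share of cells together with a higher median in the cells at 5 TPM or more, as in Hdac1, was also found in Ncor1 and Sin3a, and in 32.4% of 5307 genes found in at least 5 cells of each genotype. Ski showed it too, but with 3 Ski-KO and 6 Ski-WT cells it is outside that count.

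The 6 genes were next examined for joint detection in the same cell. For each of the 15 pairs, the number of cells with both genes at 5 TPM or more was set beside the product of their shares times the number of cells. Over all cells 9 of 15 pairs lay above the product, against 54.6% of 39387250 pairs among the 8876 genes found in at least 5 cells. The median ratio of observed to product was 1.04 for the 15 pairs and 1.03 for all. The phi coefficient measures the correlation of presence and absence, and the 2 pairs where it was highest are named here by that rank. Hdac1 and Hdac2 were together in 18 cells against a product of 14.4, at the 88.7 percentile of all pairs by this coefficient (phi 0.17). Sin3a and Hdac1 were together in 15 cells against 11.97 (phi 0.15). These 15 were mostly Ski-WT, 11 cells against a product of 8.17, with 2 cells in each Ski-KO prefix against 2.67 and 1.26. Sin3a and Hdac2, the remaining pair of the Sin3 complex among the 6 genes, were together in 8 cells against 7.98 (phi 0.0011).

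The pair of the NCoR complex, Ncor1 and Hdac3, behaved differently between prefixes. In Ski-WT 5 cells held both against a product of 8.5 (phi -0.37), in prefix 051716 9 cells against 7.33 (phi 0.27), and in prefix 051816 1 cell against 1.74. In Ski-WT this value stood at percentile 0.203 of all pairs, and the pair is singled out after its values were seen. In Ski-WT alone 6 of 15 pairs lay above the product, beside 52.1% of all pairs, and in prefix 051716 8 of the 10 pairs whose genes were each found in at least 5 cells, beside 52.1% of all pairs. The pairs with Ski were near or below the product, with Ncor1 in 6 cells against 6.03, Hdac1 in 5 against 4.31, Sin3a in 2 against 2.39, Hdac2 in 2 against 2.87 and Hdac3 in 1 against 2.49.

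**Figure D4:**
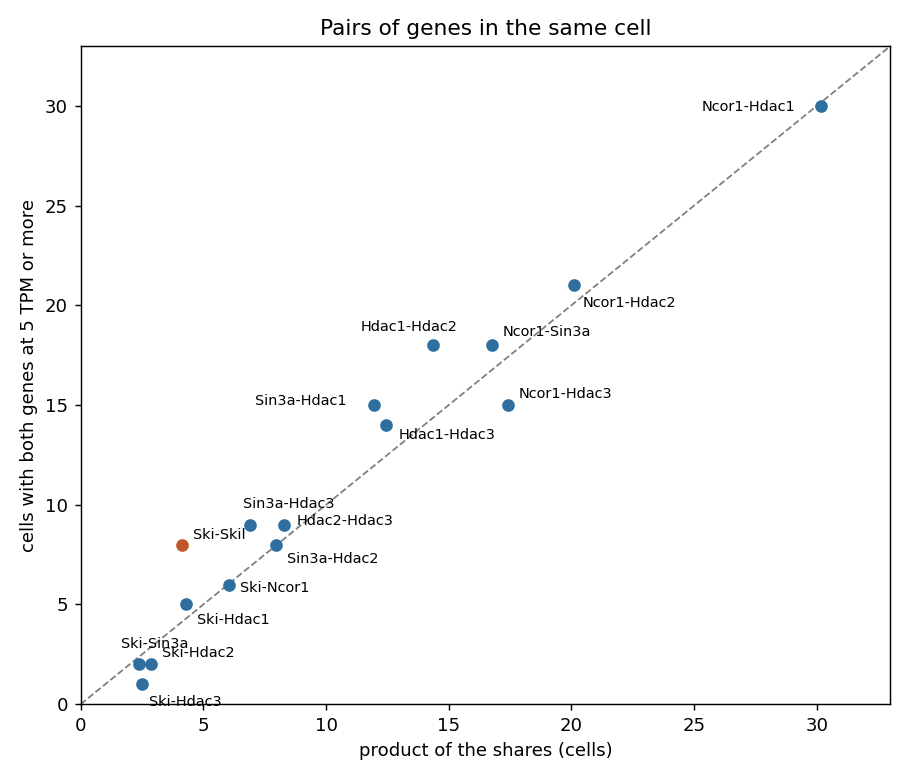
Number of cells in which both genes of a pair reach 5 TPM (vertical) against the product of their shares times 94 cells (horizontal), for the 15 pairs in blue and Ski with Skil in orange, with equality dashed. Hdac1-Hdac2 (18 against 14.4) and Ski-Skil (8 against 4.12) lie above the line, and Ncor1-Hdac3 (15 against 17.4) lies below it.

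Transcripts for all parts of a complex were seldom found at 5 TPM or more in 1 cell. Such counts depend on the share of each gene, and Ski reached 5 TPM in only 9 cells. For combinations of more than 2 genes no product of shares was set beside the counts. These counts therefore do not show whether the genes go together, nor whether the protein complexes are present. At least 1 of the 3 deacetylases reached 5 TPM in 66 of 94 cells (70.2%), and Ncor1 or Sin3a in 70 (74.5%). A scaffold together with a deacetylase was found in 49 cells (52.1%, interval 41.6% to 62.5%), which were 15 of prefix 051716 (55.6%), 7 of prefix 051816 (36.8%) and 27 of Ski-WT (56.2%). Sin3a with Hdac1 or Hdac2 was found in 4, 2 and 12 cells, so 25% of Ski-WT cells (13.6% to 39.6%) and 13.04% of Ski-KO cells (4.94% to 26.3%). Ncor1 with Hdac3 was found in 9, 1 and 5 cells. Ski with a scaffold and a deacetylase was found in 4 cells, 1 of prefix 051716 and 3 of Ski-WT. All 6 genes were found together in 0 of 94 cells, which allows a share of up to 3.19% taken as 3 counts of the total, or 3.85% as the upper end of the exact interval. The fullest cells held 5 genes without Ski, namely Ski-KO cell 18, with Sin3a at 482 TPM and Hdac3 at 327.13, and Ski-WT cell 21, with Hdac1 at 927.16 TPM and Sin3a at 263.38.

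Skil encodes SnoN, the nearest relative of Ski, which binds Smad proteins and the same scaffolds. Of the 9 cells with Ski at 5 TPM or more, 8 also held Skil, against a product of 4.12, and of all 94 cells 43 held Skil. In Ski-WT it was 5 of 6 cells against 2.25, and in the Ski-KO prefixes 2 of 2 and 1 of 1. The exception was Ski-WT cell 32, with the most Ski and Skil at 0.27 TPM. The pair stood at percentile 96.4 of all pairs and was chosen after its values were seen. The excess over the product depended on the limit, since at 20 TPM 2 of 5 Ski cells held Skil, against a product of 2.02. At 10 TPM it was 6 of 8 against 3.40, at 1 TPM 9 of 12 against 5.87, and above 0 it was 17 of 19 against 11.1. Of the cells that held both, Ski-KO cell 24 had Skil at 5.01 TPM, just over the limit. The Ski cells had a median of 2590 genes at 5 TPM or more, against 2288 in the cells with Ski listed at 0. Skil itself was at 5 TPM or more in 11 cells of prefix 051716 (40.7%), 14 of prefix 051816 (73.7%) and 18 of Ski-WT (37.5%), and its difference was 1.15 (0.41 and 2.19 in the prefixes).

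The number of the 6 genes found in a cell moved with the number of all genes found in it. The median was 2 in each prefix, and the mean was 1.91 in Ski-KO and 2.29 in Ski-WT. The 7 cells with none of the 6 had 1154 to 2035 genes at 5 TPM or more (median 1641), the 23 cells with 1 had a median of 2094, the 30 with 2 a median of 2460 and the 34 with 3 or more a median of 2536.5. Of the 7 empty cells, 4 were of prefix 051716, 2 of prefix 051816 and 1 of Ski-WT. Spearman's rho between both numbers was 0.47 in prefix 051716, 0.63 in prefix 051816 and 0.47 in Ski-WT, given as a description, since both come from the same library of each cell and the 6 genes are themselves among the genes counted. The part of this in the shares and pairs above was not tested beyond the values given.

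**Figure D5:**
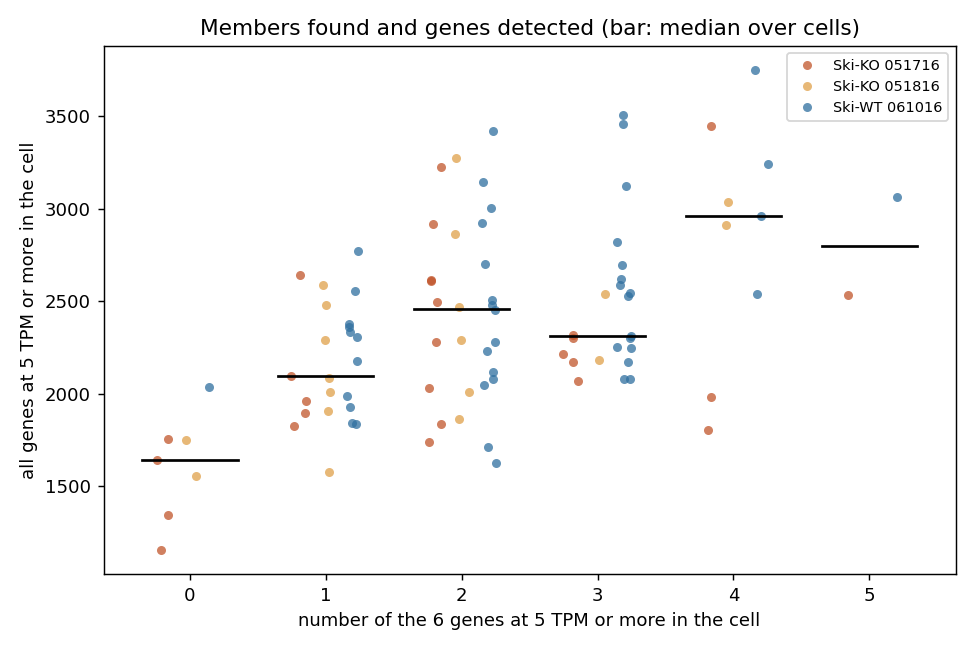
Number of all genes at 5 TPM or more in a cell against the number of the 6 genes at 5 TPM or more, with 1 point per cell coloured by prefix and a bar at the median. The 7 cells with none of the 6 genes lie between 1154 and 2035 genes.

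The other subunits of these complexes were examined by lists. Of the NCoR complex, which also holds the beta-propeller proteins of the Tbl1x family, 7 of 7 genes passed the limit, and 3 were lower and 1 higher in both Ski-KO prefixes. Tbl1x differed by -0.62 and Coro2a, another subunit, by 0.68. Of the Sin3 complex 15 of 21 genes passed, and 6 were lower and 3 higher in both. The histone-binding subunits Rbbp4 and Rbbp7, which the Sin3 and NuRD complexes share with Hdac1 and Hdac2, differed by -0.90 (-1.17 and -0.53 in the prefixes) and -0.76 (-0.97 and -0.47). Of the NuRD complex 12 of 13 passed, with 5 lower and 3 higher in both, and Mta3, one of its scaffolds, differed by -0.96. Of the CoREST complex 9 of 11 passed, with 5 lower and 1 higher in both. These lists share members, and their counts are read against the 44.3% and 18.5% of all tested genes. Differences of the genes in these and the following lists, the 6 aside, were not put through the alternatives used for the 6.

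Deacetylases outside the 6 were mostly too sparse to describe. Of 15 such genes 5 passed, and 4 were lower and 1 higher in both Ski-KO prefixes. The same 44.3% and 18.5% of all tested genes stand beside the counts of this and the following lists, which hold few passing genes. Sirt3, a mitochondrial sirtuin, differed by -1.40 (-1.31 and -1.53), and Sirt6, a nuclear one, by -1.36 (-2.03 and -0.41). Histone acetyltransferases, the opposing enzymes, had 4 of 9 genes passing, with 0 lower and 0 higher in both. Of 14 genes encoding binding partners of Ski, among them the Smad proteins, 6 passed, with 5 lower and 1 higher in both. Snw1 encodes the splicing and transcription cofactor Skip. It was at 5 TPM or more in 10 cells of prefix 051716, 13 of prefix 051816 and 42 of 48 Ski-WT cells. Its difference was -2.44 (-3.73 and -0.60), with a mean of 238 TPM in Ski-KO and 317 TPM in Ski-WT. Prmt5, an arginine methyltransferase, differed by -1.34 (-1.72 and -0.80). Smad4, the common partner of the TGF-beta Smads, was at 5 TPM or more in 8 cells of each genotype and did not pass the limit. Ubiquitin ligases and other turnover genes of Ski and Skil had 1 of 5 genes passing, which differed in direction between prefixes. Stem cell genes had 6 of 10 passing genes lower and 0 higher in both, with Meis1 at -1.72.

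The genes most like each of the 6 across the 94 cells were ranked by Spearman's rho of the deposited values, as a description over cells that share a library preparation and differ in detected genes. Sin3a was most like Mrpl40 (rho 0.45), Sdha (0.42) and Vps4b (0.40), the last with 0.09 in prefix 051816. Hdac1 was most like Ska3 (0.47), Psma4 (0.43) and Fhl1 (0.41), and within prefix 051816 Ska3 had rho of 0.15 and Fhl1 of -0.0033. Ska3 was found at 5 TPM or more in 7 cells only. Hdac2 was most like Nup205, Bgn and Rnaseh2a (each 0.41). Hdac3 was most like Cers5 (0.39, with 0.09 in prefix 051716), Smc1a (0.38) and Rfc3 (0.37), and Ncor1 like Cnot6 (0.44), Ube2r2 (0.38) and Efcab4a (0.37), the last found at 5 TPM or more in 2 cells only. Ski was most like Zfp146 (0.43), Rnf214 (0.38) and Utp18 (0.35), and within prefix 051816 the first and the last of these had rho of -0.19 and -0.29. Among the 6 themselves the highest value was 0.31, between Sin3a and Hdac1, with 0.42 in Ski-WT, 0.45 in prefix 051816 and 0.09 in prefix 051716.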

How the data were processed

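Cells were captured on a Fluidigm C1 system, cDNA was made with a SMARTer kit and libraries with Nextera XT, per the labels' protocols. The submitters' processing notes name Bowtie2, RSEM and the mouse build mm9 without versions. From their range and totals, the values the authors deposited are log2(TPM + 1): each cell sums to 997625 to 999995 after back-transformation. The 6 genes, the gene lists and the limit of 5 TPM were chosen with earlier results of these data known. No cell was removed and no doublet caller was run. Differences are the mean of the deposited log2 values over Ski-KO cells minus that over Ski-WT cells, described for the 6240 genes with a value above 0 in 25% or more of Ski-KO or of Ski-WT cells. A call is a difference of 1 or more. In each list up to 4 passing genes were named by the smaller of both prefix differences of equal sign, and further genes with their counts after these were seen. For each of the 6 genes the 3 with the highest rho were named. The functions were tested on simulated data. Sequence sharing was counted in GENCODE transcripts of GRCm38, so no coordinates are given. Python 3.11.15, pandas and scipy were used. Alternatives were other pseudocounts, limits, scalings, cell sets and filters.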

Additional observations from a re-analysis of the deposited data

How the results depend on the processing

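Each genotype is 1 sample with no replicate, and depth per cell is unknown, so no alternative carries a test. The Hdac1 difference of -1.17 changed sign with linear means (0.17) and with the median over cells at 5 TPM or more (1.17). Under the other 10 alternatives it stayed below 0, the weakest being -0.60 with detected genes as a covariate. The number of the 6 genes lower in both Ski-KO prefixes, 4, became 2 with linear means, 1 with quantile normalization, 1 with detected genes as a covariate and 0 with the median over cells at 5 TPM or more. The causes were not tested. Ski, which did not pass the limit on the share of cells, is among the 4. The percentage of all genes lower in both prefixes was recounted only when that limit was changed. It was not recounted with linear means, quantile normalization, the covariate or the median. Whether the 6 genes moved differently from all genes under these alternatives is therefore not known. The median number of the 6 genes per Ski-KO cell became 1 at a limit of 20 TPM, and stayed at 2 in Ski-WT. Pairs above the product numbered 6 to 10 of 15 under 8 alternatives, and the percentage of all genes lower in both prefixes was 41.6 without a filter and 45.4 with a limit of 50% of cells. Leaving out the highest cell of each genotype and the alternatives for Skil were chosen after seeing the data. No paired analysis was possible because no number in the labels links Ski-KO and Ski-WT cells to a shared animal, donor or batch, and no result comes from a test.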
